A study of Mus musculus with 36 samples.

Results

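The cytosolic ribosomal protein genes were followed through heart development in C57BL/6 mouse embryos. A gene was taken when an array probe set was annotated to its symbol alone and the symbol was Rpl or Rps, a number and at most 1 letter. For each gene the probe set with the highest mean over the 36 arrays was used. This gave 43 genes, 22 of the large subunit (Rpl) and 21 of the small subunit (Rps), out of 18193 genes that had such a probe set on the array. Another 27 genes of the family, among them Rpl3, Rpl5, Rpl10 and Rpl26, were present only on probe sets that carry several symbols, and they are not among the 43.

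The arrays fall into 12 groups of 3. The description of the E10.5 and E11.5 samples gives a middle block of the embryo with the heart in it. Their source label reads whole heart, so these groups may hold tissue other than heart. Ventricles and atria were dissected apart and measured as separate samples at 5 later ages, E12.5 to E14.5 by day, E16.5, and finally E18.5. The embryos carried no mutation or treatment in the labels, and another field gives the E16.5 samples a day earlier. Whether the 3 arrays of a group represent different animals is not in the labels, and p-values therefore cover the spread among arrays, which may be technical.

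Ribosomal proteins are the structural proteins that assemble with ribosomal RNA in the nucleolus into the large and the small ribosomal subunit. Their mRNAs are among the most abundant in growing cells, and most of them begin with a run of pyrimidines, the 5′ terminal oligopyrimidine tract, through which mTOR signalling and the RNA-binding protein Larp1 set how strongly they are translated. In the embryonic heart, ribosome production supports the growth of the muscle wall, and a few family members have muscle-restricted paralogues or further roles outside the ribosome.

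Promoter sequences were shown for members on which the results below turn, because the pyrimidine run is the sequence feature that the family shares. Each line gives 30 bases of the RefSeq sequence (build GRCm38.p6) in the direction of the gene, 15 before and 15 from the annotated start onwards, with the C and T run of at least 6 bases in capitals. Rpl35, Rps18, Rps6, Rpl27a and Rpl14 had calls in the comparisons, and the muscle paralogue Rpl3l is shown as a contrast.
Rpl35, chr2:39005117-39005146, minus strand: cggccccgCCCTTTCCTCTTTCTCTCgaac
Rps18, chr17:33955651-33955680, minus strand: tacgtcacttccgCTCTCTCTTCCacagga
Rps6, chr4:86857353-86857382, minus strand: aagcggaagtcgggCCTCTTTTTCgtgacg
Rpl27a, chr7:109519180-109519209, plus strand: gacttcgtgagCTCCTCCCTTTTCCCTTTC
Rpl14, chr9:120571502-120571531, plus strand: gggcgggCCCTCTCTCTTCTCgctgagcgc
Rpl3l, chr17:24727811-24727840, plus strand: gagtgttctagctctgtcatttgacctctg

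The run was 18 bases long in Rpl35, 11 in Rps18, 10 in Rps6, 19 in Rpl27a and 14 in Rpl14 within this window, and Rpl3l had none. Of the 43 members, 37 matched a promoter in the RefSeq table. A run of at least 8 C or T bases between 30 bases before and 50 bases after the start, on the strand of the gene, was present in 31 of the 37 (83.8%), against 32.1% of 26742 genes. The motif CTTTCC in the same stretch and on the same strand was present in 11 members (29.7%) against 4.39% of genes, and it can lie within the C and T run. CCGGAAG, searched on both strands of the 300 bases, was present in 18 members (48.6%) against 10% of genes. TATAAA between 40 and 15 bases before the start, on the strand of the gene, was present in 0 members and in 2.40% of genes. These matches describe letters in the sequence and not sites in use.

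The members differed widely in signal. The values are intensities on a linear scale as deposited, and they do not rank genes against each other because each probe set binds its target differently. A group of 31 members had means between 6377 and 15560, and these are called bright here. Another 9 members had means between 357 and 3432 and are called dim, namely Rpl37, Rps4l, Rps6, Rps25, Rpl39, Rpl12, Rpl27a, Rpl14 and Rps27. The boundary of 5000 between bright and dim was set after the values were seen. Of the bright members, Rps29 had the highest mean and ranged from 11938.7 to 23686.1 over the arrays.

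Probe sets entered the tests if 3 or more arrays exceeded 171.8, the overall median, and 40 of the 43 members passed. The 3 that did not were Rpl39l (mean 63.4), a paralogue of Rpl39, Rpl3l (57.6) and Rps16 (3.38). The Rps16 probe set stayed between 1.6 and 8.3 on all 36 arrays, so it gives no usable reading of that gene. Among the 43 chosen probe sets, 14 carry the x and 2 the s suffix, which the array's naming uses for probes that may bind transcripts of related genes, and ribosomal protein genes have many near-identical processed copies. The values of these members are uncertain to that extent.

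**Figure D1:**
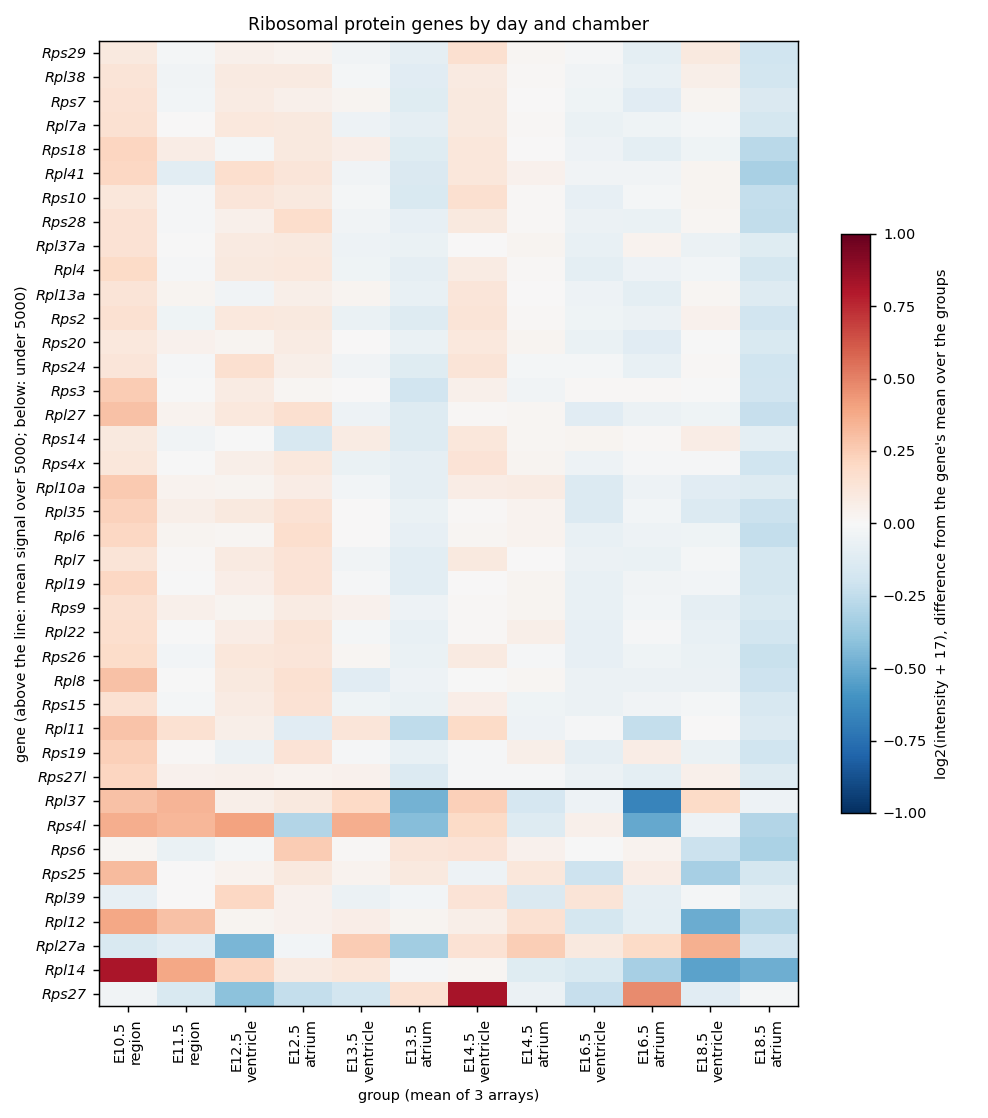
Mean log2 difference of each of the 40 tested members (rows, bright above the line and dim below it, each ordered by mean signal) from the gene's own average, by group (columns, mean of 3 arrays). Bright rows shade together from column to column, whereas dim rows such as Rps4l, Rpl37, Rpl14 and Rpl27a each follow a course of their own.

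The bright members tracked the members' median from array to array more closely than the dim ones. Across the 36 arrays, the correlation of a bright member with the median of the other members had a median of 0.92 over the 31 genes, and it exceeded 0.8 for 27 of them. For the 9 dim members the median was 0.19, the highest was 0.44, and none exceeded 0.8. Set against the median of the other members of its own class, a bright member had a median correlation of 0.92 and a dim member one of 0.28, with dim values from -0.24 (lowest) to 0.70 (highest). These correlations describe arrays that share groups, and the bright members share their place at the top of the intensity range. Of the 100 probe sets with the highest mean, 43 were annotated to a gene of the family, alone or with other symbols, and 14 were those of the members.

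To follow the group as a whole, the median over the 40 tested members of the log2 difference from each gene's mean was taken on every array. At E10.5 the 3 arrays stood at 0.18, 0.16 and 0.20, and at E11.5 at 0.04, -0.01 and -0.02. The E18.5 ventricles stood at -0.00, 0.08 and -0.15, and the E18.5 atria at -0.12, -0.27 and -0.16. The E10.5 arrays were thus above those of E11.5 and of E18.5 in both chambers without overlap, and the E18.5 chambers overlapped each other. Between these ages the arrays of a group could lie far apart, at 0.30, -0.08 and -0.01 in the E14.5 ventricles and at -0.20, 0.28 and -0.03 in the E14.5 atria.

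The spread within groups followed the top of each array's range. The highest value on an array lay between 12531.7 and 26431.7, and the group median of the members correlated with its log2 value at r = 0.89 over the 36 arrays (Spearman rho 0.91). Without the 2 arrays farthest from the median maximum, r was 0.88, and for deviations from the group means it was 0.95. The quantities are not independent, since a family probe set held the highest value on 12 of the 36 arrays. The correlation with the median intensity of the array was -0.09. With the log2 ratio of the 3′ to the 5′ actin control probe set, which lay between 0.21 and 0.47, it was 0.41. The part of that ratio in the spread was not tested. The 3 arrays with the highest maximum were the first E14.5 ventricle (26431.7), the third E12.5 ventricle (21868.2) and the second E14.5 atrium (21703.1), and the members' medians there were 0.30, 0.27 and 0.28.

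**Figure D2:**
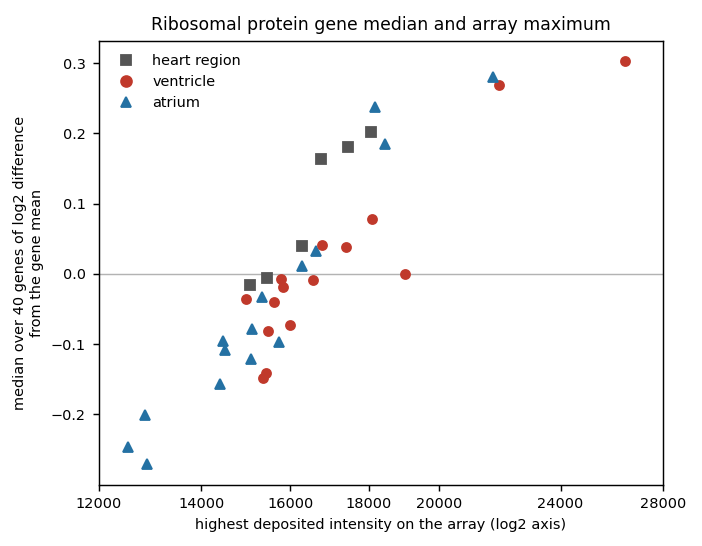
Median log2 difference of the 40 tested members from the gene means (vertical axis) against the highest deposited intensity of the same array (horizontal axis, log2 scale), 1 point per array. Arrays with a higher maximum have a higher ribosomal protein median (r = 0.89, n = 36 arrays).

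Quantile normalization, which gives all arrays the same distribution of values, reduced the pooled SD of this median within groups from 0.14 to 0.02. On that scale the medians ran from 0.06 ± 0.01 (SD, n = 3) at E10.5 and 0.03 ± 0.01 at E11.5 to -0.09 ± 0.01 in E18.5 ventricles and -0.04 ± 0.02 in E18.5 atria. The E16.5 ventricles were between these at -0.04 ± 0.01. Every E18.5 ventricular array (highest -0.08) was below every E18.5 atrial array (lowest -0.06), and both groups were below all arrays of E10.5, E11.5 and E12.5. On this scale single arrays ran from -0.10 to 0.10, and a shift of the entire top of the range would be removed by this normalization.

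**Figure D3:**
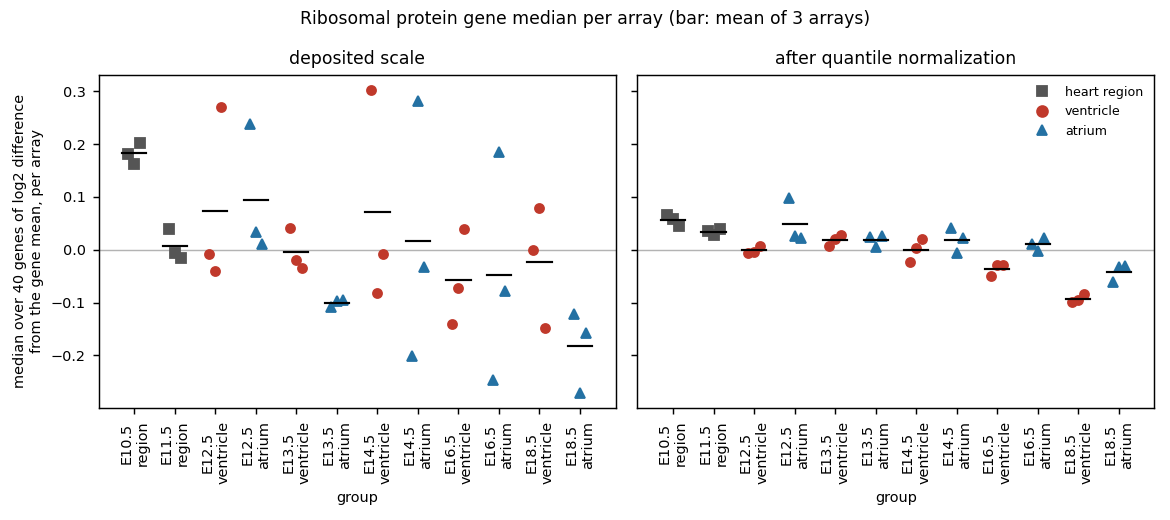
Median log2 difference of the 40 tested members from the gene means on each array, by group, on the deposited scale (left) and after quantile normalization (right). Bars are means of 3 arrays. Arrays of 1 group spread widely on the left, and on the right they lie close together with the E18.5 ventricles lowest.

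The first comparison asked how atria differed from ventricles over the 5 ages at which both were sampled, with 15 arrays a chamber. The tests were limma fits over all 27256 probe sets tested, two-sided, on log2(intensity + 17) with Benjamini-Hochberg adjustment, and an adjusted p below 0.05 was a call. In atria 3 of the 40 members were lower and 1 was higher, 10% of them, while 42.4% of all probe sets tested were called in either direction. The members' median difference was -0.06 against -0.01 for all probe sets tested. The 3 lower members were Rps4l, Rpl37 and Rpl11, and the higher one was Rps25.

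Rps4l, whose symbol marks it as an S4-like paralogue of Rps4x, gave the largest of these differences. At E12.5 it read 3540.0, 3524.9 and 3641.6 in ventricles and 1904.2, 2575.0 and 2159.1 in atria. At E18.5 it read 2725.6, 2810.6 and 2324.1 in ventricles and 2267.6, 2250.2 and 2075.3 in atria. Every ventricular array was above every atrial array of the same age at these and at the other 3 ages, with the narrowest gap at E14.5, where the lowest ventricle read 3008.8 and the highest atrium 2980.0. Over the 5 ages Rps4l was 1.44-fold lower in atria (log2 -0.52 ± 0.06 SE, adjusted p = 5.775e-09). The parent gene Rps4x, on a bright probe set, differed by -0.05 ± 0.06 (adjusted p = 0.54).

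The Rps4l difference was called at E12.5 (-0.70 ± 0.12, adjusted p = 0.00051), E13.5 (-0.79, adjusted p = 5.81e-05) and E16.5 (-0.56, adjusted p = 0.0016). At E14.5 it was -0.33 (adjusted p = 0.11) and at E18.5 -0.25 (adjusted p = 0.16). In ventricles Rps4l fell from E12.5 to E18.5 by 0.45 ± 0.12 on the log2 scale (adjusted p = 0.0066), and in atria the difference was 0.00 ± 0.12. The test of the difference between these 2 courses did not pass (0.45 ± 0.17, adjusted p = 0.15). The ventricular fall was not called without the third E18.5 ventricular array (adjusted p = 0.050). Nor was it called when every array was centred on its own median or scaled to the members.

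Rpl37, which encodes a small zinc-binding protein of the large subunit, was lower in atria at E13.5, where ventricles read 3538.1, 3797.1 and 4199.3 and atria 2668.9, 1907.9 and 2704.5. At E12.5 the atria spread from 2798.0 to 4754.0 around ventricles of 3372.8 to 3566.3. The chambers thus overlapped at E12.5 and were apart at E13.5. They also overlapped at E16.5, where the highest atrium read 3125.1 and the lowest ventricle 2988.0. The same held at E18.5, with 3395.1 and 3283.4. Over the 5 ages the difference was -0.38 ± 0.08 (1.30-fold, adjusted p = 0.00056). It was called at E13.5 (-0.67, adjusted p = 0.018) and E16.5 (-0.61, adjusted p = 0.026), where 1 atrial array read 1366.5. The E13.5 call was lost without ventricle replicate 3 or atrium replicate 2, and the E16.5 call without ventricle replicate 1, ventricle replicate 3 or atrium replicate 2. Both calls were lost with arrays scaled to the members. The E16.5 call was also lost with median centring, in the fit of the compared groups alone and without the arrays that had high lung or liver markers.

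Rpl11, which besides its place in the large subunit binds Mdm2 and so links ribosome assembly to p53, was the only bright member called between chambers. At E13.5 it read 8098.2, 7799.2 and 9223.0 in ventricles and 6185.1, 6334.9 and 6798.2 in atria. At E16.5 the ventricles read 7419.4, 7189.3 and 8286.3 and the atria 6491.2, 6544.4 and 6530.2. The chambers did not overlap at E13.5, E16.5 or E18.5, and they overlapped at E12.5 and E14.5. Over the 5 ages Rpl11 was 1.17-fold lower in atria (-0.23 ± 0.04, adjusted p = 6.38e-05). Its E13.5 difference (-0.38, adjusted p = 0.0090) was not called without the third E13.5 ventricular array.

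Rps25, a small-subunit protein known for its part in translation from internal ribosome entry sites, was higher in atria by 0.14 ± 0.04 (1.11-fold, adjusted p = 0.0089). The E16.5 ventricles read 848.8, 888.8 and 932.6 and the E16.5 atria 1048.4, 996.8 and 1222.8. All E16.5 atria were above the ventricles, and so were those of E18.5, where the ventricles reached 863.0 and the lowest atrium read 880.8. The call over the 5 ages was lost without the 5 arrays that had high lung or liver markers. The E16.5 call (0.28, adjusted p = 0.047) was lost without any of 5 of the 6 arrays, the exception being the second atrium.

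**Figure D4:**
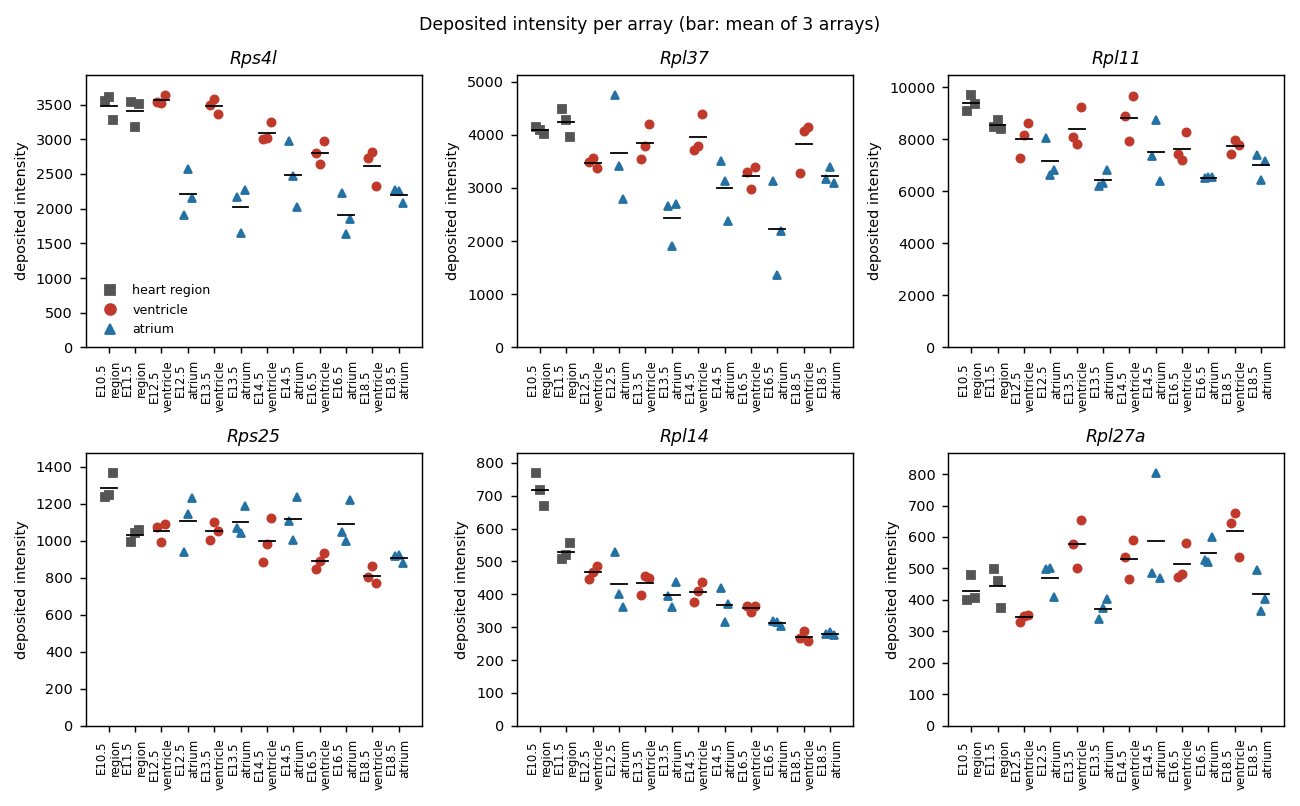
Deposited intensity (linear axis from 0) of 6 members on each of the 36 arrays, by group, with bars at the mean of 3 arrays. Rps4l is higher in ventricles than in atria at each of 5 ages, Rpl14 falls from 718 on average at E10.5 to at most 289.1 on the E18.5 arrays, and Rpl27a is lowest in E12.5 ventricles among the ventricular groups.

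The scaling of the arrays decided how the other members divided. After quantile normalization 16 members were higher and 3 lower in atria, against 21.9% and 22.8% of all probe sets tested. The 16 differences were small, up to 0.13 for Rps25, and 0.12 for Rpl10a, Rpl35 and Rpl22. Scaling arrays to the members' own median sets their median difference near 0 by construction, and so counts differences from the rest of the members: 6 were higher and 4 lower, against 21.1% and 11.8% of all probe sets tested. Rps4l, Rpl37 and Rpl11 were lower in atria under every alternative that included them and without any 1 array. The alternative with probe sets without a suffix did not include Rpl37 or Rpl11. Leaving out 1 array raised the count of calls to 7 without the first E12.5 atrium or the second E14.5 ventricle, to 11 without the second E14.5 atrium and to 10 without the second E16.5 atrium. The shares of all probe sets called in these fits are not given, so the rises are not particular to the members on this evidence.

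At single ages few members were called between chambers. The counts were 1 at E12.5 (Rps4l), 4 at E13.5 (Rps4l, Rpl37, Rpl11 and Rpl27a), 0 at E14.5, 3 at E16.5 (Rps4l, Rpl37 and Rps25) and 1 at E18.5 (Rpl27a). Of all probe sets tested, 9.67%, 12.1%, 6.18%, 16.9% and 19.5% were called at these ages. Both Rpl27a calls were lost with probe sets averaged and with arrays scaled to the members. The E13.5 call was also lost without ventricle replicate 3 or atrium replicate 1. The E18.5 call was also lost without ventricle replicate 2, atrium replicate 2 or atrium replicate 3, and without the arrays that had high lung or liver markers. At E14.5, 4 members had an unadjusted p under 0.05 in limma, and the members' median moved from -0.09 to 0.08 without the first ventricular array and to -0.23 without the second atrial one. At E18.5 all 31 bright members were below 0 in atria, with a median of -0.16, and after quantile normalization 8 members were higher and 1 lower there (10.6% and 9.48% of all probe sets tested), with a median of 0.06. With array weights 9 members were lower and none higher (14.4% of all probe sets tested were lower), and without the 3 arrays of highest maximum 6 were lower and none higher (9.64%). The sign of the members' median at E18.5 turned with quantile normalization. At E14.5 the ventricular muscle marker score reached 0.66 in an atrial array, and its part in the E14.5 values was not tested.

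The next comparison asked what changed in ventricles from E12.5 to E18.5. Of the 40 members, 4 fell and 1 rose (12.5%), against 28.7% of all probe sets tested, and all 5 were dim. The median over the members was -0.09, and over all probe sets tested it was -0.05. The members that fell were Rpl14, Rpl12, Rps4l and Rps25, and the one that rose was Rpl27a. None of the 31 bright members was called, and their differences lay between -0.24 and 0.08.

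Rpl14, a protein of the large subunit, had the steadiest course. It read 769.2, 716.5 and 669.0 at E10.5, 509.0, 519.6 and 557.4 at E11.5 and 447.3, 468.0 and 485.7 in E12.5 ventricles. In E18.5 ventricles it read 267.4, 289.1 and 257.0, and in E18.5 atria 280.2, 284.4 and 277.7. Its ventricular arrays of E12.5 and E18.5 were far apart. Rpl14 fell 1.68-fold in ventricles (-0.75 ± 0.11, adjusted p = 1.29e-05) and 1.49-fold in atria (-0.57 ± 0.11, adjusted p = 0.00047). The fall in ventricles was called under every alternative and without any 1 array.

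Rpl12, which sits at the base of the stalk where translation factors bind the large subunit, read 674.4, 769.4 and 611.7 in E12.5 ventricles and 459.2, 469.2 and 484.9 at E18.5. The ages did not overlap. It fell by 0.52 ± 0.13 in ventricles (1.43-fold, adjusted p = 0.0043), and in atria the difference was -0.33 ± 0.13 (adjusted p = 0.071). Rps25 read 1073.3, 994.6 and 1091.7 at E12.5 and 803.8, 863.0 and 770.0 at E18.5 and fell by 0.37 ± 0.10 (adjusted p = 0.0055). The Rps25 call was lost when every array was centred on its own median or scaled to the members.

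Rpl27a, a large-subunit protein, read 329.3, 350.1 and 353.3 in E12.5 ventricles. Its gene also lies on a second, dimmer probe set that did not pass the filter. On the member probe set Rpl27a read 576.7, 500.2 and 654.3 in E13.5 ventricles and 643.1, 676.5 and 537.6 in those of E18.5. The E12.5 arrays were below all later ventricular arrays. Rpl27a rose 1.75-fold from E12.5 to E18.5 (0.81 ± 0.16, adjusted p = 0.00027), and this call was lost when both of its probe sets were averaged. In atria it read 497.8, 500.7 and 408.9 at E12.5 and 494.6, 363.8 and 402.3 at E18.5, which overlap.

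Scaling also moved the ventricular count. After quantile normalization 17 members fell and 1 rose, against 15.9% and 13.8% of all probe sets tested. Among the bright members Rpl35 (-0.27), Rps26 (-0.23) and Rpl8 (-0.21) fell most there. Relative to the members' own median, Rpl14 fell, Rpl27a rose and no other member was called, against 5.64% of all probe sets tested lower and 11.1% higher.

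In atria from E12.5 to E18.5, 14 of the 40 members fell and none rose. That was 35% of the members, against 11.7% of all probe sets tested called lower and 24.3% called in either direction. The median over the members was -0.28, 37 of the 40 were below 0, and the median of all probe sets tested was 0.01. The members that fell came from both subunits. Bright probe sets of all genes also fell more often here: of 1016 tested above 5000, 22.2% were lower, with a median of -0.14, and 11 of the 31 bright members were. The members lower were Rpl6, Rpl7, Rpl14, Rpl19, Rpl22, Rpl27, Rpl35, Rpl41, Rps6, Rps18, Rps19, Rps25, Rps26 and Rps28.

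Rps6, the small-subunit protein that S6 kinase phosphorylates when mTOR is active, read 1476.6, 1276.4 and 1026.2 in E12.5 atria and 855.7, 707.7 and 968.2 in E18.5 atria. The ages did not overlap, and Rps6 fell 1.48-fold (-0.56 ± 0.14, adjusted p = 0.0028). In ventricles its difference was -0.19 ± 0.14 (adjusted p = 0.31).

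Rps28, of the small subunit, read 16131.7, 13895.7 and 12927.6 in E12.5 atria and 11298.9, 9624.2 and 11178.0 in E18.5 atria, again without overlap. It fell 1.34-fold (-0.42 ± 0.14, adjusted p = 0.024). Rpl6, of the large subunit, read 14644.5, 11631.4 and 11608.2 at E12.5 and 9886.5, 8745.2 and 9875.4 at E18.5. It fell 1.32-fold (-0.40 ± 0.13, adjusted p = 0.019). The E12.5 and E18.5 atria were thus apart for both bright members, with the first E12.5 array highest. Both calls were lost without the first E12.5 or the second E18.5 array, and without the arrays that had high lung or liver markers.

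Rpl41, which encodes the smallest ribosomal protein, read 14581.4, 14243.6 and 14383.4 in E12.5 atria and 9483.1, 10070.7 and 12254.8 in E18.5 atria. It fell by 0.45 ± 0.16 (adjusted p = 0.041), a call lost without any of 5 of the 6 arrays. Rps19, the gene most often mutated in Diamond-Blackfan anaemia, fell by 0.34 ± 0.11 (adjusted p = 0.024), a call lost without any of 3 single arrays. The remaining falls were between 0.27 (Rps25) and 0.39 (Rpl27), with adjusted p values between 0.0047 (Rps18) and 0.047 (Rpl19). Of these, the Rps25, Rpl7, Rpl19 and Rps26 calls were each lost without any of 5 of the 6 arrays. The Rpl22 and Rpl35 calls were each lost without any of 4 arrays, the Rpl27 call without either of 2 and the Rps18 call without 1. In all, 25 of the 40 members had an unadjusted p under 0.05. The share of all probe sets under that unadjusted limit is not given, here or for the other comparisons. The unadjusted counts therefore do not show changes particular to the members.

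The atrial count moved with single arrays and with settings in both directions. It was 29 with array weights (28 lower, against 24.3% of all probe sets tested) and 24 lower without the 3 arrays of highest maximum (13.0%). It was 3 without the first E12.5 or the second E18.5 atrial array, 9 without the second E12.5, 6 without the first E18.5 and 8 without the third E18.5 atrial array. The shares of all probe sets called in these fits are not given, so these counts do not show changes particular to the members. The first E12.5 atrial array stood at 0.24 in the members' median and the second E18.5 array at -0.27, and their highest values were 18157.4 and 12905.3. After quantile normalization 11 members fell and 1 rose, against 12.9% and 13.1% of all probe sets tested, with a median of -0.10. Relative to the members' own median, which that scaling sets to about 0, Rpl6 and Rps28 were lower and Rps14 higher (2.41% and 23.3% of all probe sets tested). Without the arrays that had high lung or liver markers 4 fell, a count that also has no share of all probe sets beside it. Rpl14 and Rps6 kept their calls without any 1 array, but Rpl14 lost its call with arrays scaled to the members. Rps6 lost its call there, in the fit of the compared groups alone and with probe sets averaged. The second Rps6 probe set, used in that average, did not pass the filter.

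Whether the 2 chambers changed differently from E12.5 to E18.5 was tested directly. A single member, Rpl27a, was called, against 3.78% of all probe sets tested, and 4 members had an unadjusted p under 0.05. Rpl27a rose in ventricles and not in atria (difference of the changes -0.97 ± 0.22, adjusted p = 0.012). The call was lost with probe sets averaged, with arrays scaled to the members and without the arrays that had high lung or liver markers. The median over the members was -0.18 against 0.05 for all probe sets tested, and it was 0.02 after quantile normalization. For 14 members a fall in atria was called and for 4 members one in ventricles, and apart from Rpl27a no difference between the chambers passed.

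The choice of the brightest probe set bears on these results, because the family's dimmer probe sets gave other values. All tested probe sets annotated to a family gene were divided at a mean of 5000, into 137 bright and 50 dim ones. In ventricles from E12.5 to E18.5, 22 of the 50 dim probe sets fell and 1 rose, with a median of -0.36, while 16.1% of the 26240 dim probe sets of all genes fell, with a median of -0.06. Of the 137 bright ones 4 fell and none rose, with a median of -0.10, against 13.2% of the 1016 bright probe sets of all genes. In atria 13 of 50 dim and 49 of 137 bright probe sets fell, with medians of -0.23 and -0.28, against 11.3% of dim and 22.2% of bright probe sets of all genes.

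For 11 members both a bright and a dim probe set were tested. In ventricles none of the 11 was called on the member probe set, while 8 had a dim probe set that fell, and 13 of their 15 dim probe sets lay below the member's value. In atria 4 were called lower on the member probe set, 5 had a dim probe set that fell, and 10 of the 15 lay below. No dim probe set of the 11 rose in either chamber. Rps9, of the small subunit, changed in ventricles by -0.11 ± 0.10 on its bright probe set (mean 10222) and fell by 1.06 ± 0.21 on a dim one (mean 376, adjusted p = 0.00031). Rps24 changed by -0.15 ± 0.12 on the bright one (mean 12014) and fell by 0.95 ± 0.15 on a dim one (mean 454, adjusted p = 1.5e-05). Rpl41 changed by -0.14 ± 0.16 on the bright one and fell by 1.10 ± 0.27 on a dim one (mean 376, adjusted p = 0.0024). Rps3, which besides its ribosomal place takes part in DNA repair, changed by -0.09 ± 0.13 on the bright one and fell by 1.73 ± 0.47 on its dimmest, whose mean of 187 is close to the limit of 171.8 (adjusted p = 0.0060).

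The exceptions in ventricles were Rpl27, Rpl35 and Rpl37a, none of which had a called fall on a dim probe set. For Rpl27 the dim probe sets, with means of 4744 and 4071, differed by -0.02 and -0.13 in ventricles, close to the -0.15 of the bright one, and none was called. A bright and a dim probe set of 1 gene can read different parts or forms of its transcripts or bind related transcripts, and which of these applies was not tested. When each gene was given the mean of its probe sets, 11 members fell in ventricles and none rose, against 16.1% of all probe sets tested called lower.

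**Figure D5:**
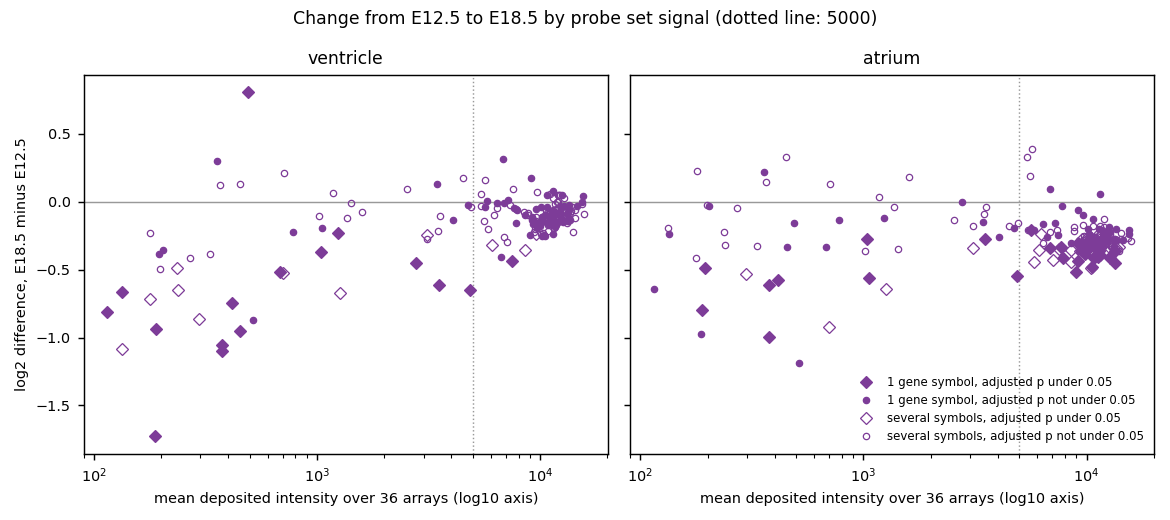
Log2 difference between E18.5 and E12.5 (vertical axis) of every tested probe set annotated to a ribosomal protein gene, against its mean intensity over 36 arrays (horizontal axis, log10 scale), for ventricles (left) and atria (right). Filled symbols carry 1 gene symbol, open ones several, and diamonds have an adjusted p under 0.05. Below 5000 the ventricular values spread from -1.73 to 0.81 with 22 calls of a fall, and above it they crowd near -0.10.

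Before the chambers were separated, the comparison of E11.5 with E10.5 asked how the samples described as a heart-containing block changed in 1 day. No member was called by limma with all 36 arrays, 7 had an unadjusted p under 0.05, and 1.16% of all probe sets tested were called. The median over the members was -0.15, 37 of 40 were below 0, and the median of all probe sets tested was 0.01. The largest difference was that of Rpl14 (-0.43 ± 0.11, adjusted p = 0.055), whose E10.5 and E11.5 arrays did not overlap. When only these 6 arrays were fitted, 22 members were lower and none higher, against 4.04% of all probe sets tested called lower. These values are on the deposited scale, where the members' median averaged 0.18 at E10.5 and 0.01 at E11.5. After quantile normalization the averages were 0.06 and 0.03. The highest value on an array was 16754.0 to 18059.6 at E10.5 and 15056.1 to 16271.4 at E11.5. The part of the array maximum in this difference was not tested.

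From E11.5 to the mean of both E12.5 chambers no member was called, 4 had an unadjusted p under 0.05, and 0.936% of all probe sets tested were called. The members' median was 0.07, with 29 of 40 above 0. At this step samples described as a block of the embryo gave way to dissected chambers, so age and dissection cannot be told apart.

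Among members known for roles beyond building the ribosome, Rpl38, which is needed for translation of certain Hox mRNAs, differed by -0.03 ± 0.13 in ventricles (adjusted p = 0.90) and -0.28 ± 0.13 in atria (adjusted p = 0.13) from E12.5 to E18.5. Rpl10a, which is enriched on a subset of ribosomes, differed by -0.14 ± 0.10 and -0.20 ± 0.10 (adjusted p = 0.33 and 0.16). Rpl13a, which in inflammation joins a complex that silences mRNAs, differed by 0.05 ± 0.11 and -0.19 ± 0.11 (adjusted p = 0.78 and 0.24). Rps6, Rps19 and Rps25, described above, fell in atria, Rps19 and Rps25 with calls lost without single arrays. Rps25 also fell in ventricles, a call lost with median centring.

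The paralogues gave mixed readings. Rps27l, a p53-induced relative of Rps27, differed by -0.01 ± 0.08 in ventricles and -0.16 ± 0.08 in atria, and neither was called (adjusted p = 0.96 and 0.14). Rps27 itself was the dimmest tested member, with arrays from 196.8 to 840.5, and no comparison called it. Rpl39 differed by -0.23 ± 0.15 in ventricles and -0.14 ± 0.15 in atria, uncalled, while its testis-enriched paralogue Rpl39l stayed between 8.8 and 155.8 and was below the filter. Rpl22 fell in atria (-0.31 ± 0.11, adjusted p = 0.046), a call lost under 8 alternatives and without any of 4 single arrays, and its paralogue Rpl22l1, outside the symbol rule, differed by -0.17 ± 0.10 there (adjusted p = 0.25).

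Rpl3l, which replaces Rpl3 in the ribosomes of adult heart and skeletal muscle, was below the filter but had its highest readings in late ventricles. The E18.5 ventricles read 140.8, 176.9 and 151.7, and the E18.5 atria 53.0, 63.8 and 13.5. The E12.5 ventricles read 48.1, 5.1 and 104.1. All E18.5 ventricular arrays were above every other E18.5 or E12.5 array, yet just 1 of them exceeded 171.8, so nearly all readings were below the limit for testing. No fold is given for Rpl3l for that reason. Its parent Rpl3 lies on probe sets with several symbols and was not read alone.

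Other genes that make or use ribosomes were taken from lists. The nucleolar factors that process ribosomal RNA and assemble subunits had 58 genes tested. From E12.5 to E18.5, 24 fell and none rose in ventricles, with a median of -0.27, and 25 fell and none rose in atria, also with a median of -0.27. For this and the following lists, the shares of all probe sets tested that fell were 16.0% in ventricles and 11.7% in atria, and 28.7% and 24.3% were called in either direction. Nop56, a core protein of box C/D snoRNPs that guide rRNA methylation, fell by 0.73 ± 0.15 in ventricles (adjusted p = 0.00059) and 0.996 ± 0.15 in atria (adjusted p = 3.465e-05). Npm1, the abundant nucleolar chaperone nucleophosmin, fell by 0.43 ± 0.08 and 0.48 ± 0.08 (adjusted p = 0.00023 and 0.00012). Nhp2, of the box H/ACA particles that guide pseudouridylation, fell by 0.70 ± 0.12 and 0.64 ± 0.12 (adjusted p = 6.35e-05 and 0.00031).

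Of 12 tested genes of RNA polymerase I and its factors, 6 fell and 1 rose in ventricles over the same period, and 5 fell and 1 rose in atria. Ubtf, which opens ribosomal DNA for transcription, fell by 0.28 ± 0.08 in ventricles (adjusted p = 0.0057) and 0.32 ± 0.08 in atria (adjusted p = 0.0022). Polr1e, a polymerase I subunit, rose by 0.71 ± 0.16 and 0.52 ± 0.16 (adjusted p = 0.0012 and 0.017) and was lower in atria over the 5 ages (-0.67 ± 0.07, adjusted p = 7.4e-09). Taf1a, of the polymerase I promoter factor SL1, fell by 1.204 ± 0.12 in ventricles (adjusted p = 6.38e-08) and differed by -0.32 ± 0.12 in atria (adjusted p = 0.059). The 2 chambers differed in this change (0.88 ± 0.18, adjusted p = 0.0036).

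Translation factors, many with mRNAs of the same pyrimidine-tract class, had 29 genes tested. In ventricles 4 fell and 1 rose from E12.5 to E18.5, and in atria 11 fell and 1 rose, so that the ventricular calls were a smaller share than the 28.7% of all probe sets. The riser was in both cases Eef1a2, the elongation factor form of mature muscle and neurons, at 1.03 ± 0.31 in ventricles (adjusted p = 0.013) and 1.89 ± 0.31 in atria (adjusted p = 8e-05). Eef1a2 was lower in atria than in ventricles over the 5 ages (-1.29 ± 0.14, adjusted p = 1.15e-08). The ubiquitous form Eef1a1 was not called in ventricles (-0.09 ± 0.17, adjusted p = 0.76) or atria (-0.25 ± 0.17, adjusted p = 0.31). Pabpc1, the poly(A)-binding protein, fell in atria by 0.58 ± 0.15 (adjusted p = 0.0039).

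Among 15 tested genes that control ribosome synthesis, Mycn, the Myc-family activator active in embryonic heart muscle, fell by 0.82 ± 0.25 in ventricles (adjusted p = 0.014) and 1.30 ± 0.25 in atria (adjusted p = 0.00038). It was lower in atria over the 5 ages (-1.002 ± 0.11, adjusted p = 2e-08). Myc itself differed by 0.36 ± 0.16 in ventricles and -0.10 ± 0.16 in atria, uncalled (adjusted p = 0.10 and 0.72). Larp1, which holds pyrimidine-tract mRNAs back when mTOR is inactive, fell in atria by 0.55 ± 0.13 (adjusted p = 0.0017). Eif4ebp1, an mTOR target that blocks cap-dependent initiation, was lower in atria over the 5 ages (-0.29 ± 0.05, adjusted p = 6.18e-06). In the list as a whole 2 rose and 1 fell in ventricles and 1 rose and 2 fell in atria, in each chamber a smaller share than that of all probe sets called.

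The ribosomal protein genes that the symbol rule leaves out gave few calls. Of 7 tested, none was called in ventricles from E12.5 to E18.5, where their median was -0.10. In atria Rpsa, which doubles as the laminin receptor, fell by 0.42 ± 0.12 (adjusted p = 0.0087), and the median was -0.27. These medians lie near those of the members, -0.09 and -0.28.

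Other cell types and cell division moved with the same comparisons. Of 15 tested proliferation genes, 7 fell in ventricles and 13 in atria from E12.5 to E18.5 (16.0% and 11.7% of all probe sets tested fell), 5 were lower in atria over the 5 ages, and their mean log2 level ran from 0.18 to 0.21 in E12.5 ventricles to -0.36 to -0.10 at E18.5, and from 0.03 to 0.62 to -0.40 to -0.32 in atria. Of 8 tested erythroid genes, 6 fell in ventricles and all 8 in atria. Their score ran from -0.51 to 1.86 in E12.5 ventricles and from -3.13 to -2.80 in E18.5 ventricles. In atria it ran from 0.84 to 3.09 at E12.5 and from -2.48 to -2.21 at E18.5. In the comparison of chambers, where 42.4% of all probe sets tested were called in either direction, 5 of the 8 erythroid genes were higher in atria. Of 8 tested liver genes 3 were higher in atria over the 5 ages, and of 9 tested lung and foregut genes 4, both near that share. The liver score reached 3.27 on the second E12.5 atrium and 2.44 on the second E16.5 ventricle. The lung and foregut score was 1.53 to 1.90 on the third atrial arrays of E13.5, E16.5 and E18.5. Of 7 tested fibroblast genes, 6 rose in ventricles and 4 rose and 1 fell in atria over the period, and 6 were higher in atria over the 5 ages. Of all probe sets tested, 28.7% were called in either direction in ventricles over the period and 24.3% in atria. Of 9 macrophage genes 7 were higher and 1 lower in atria over the 5 ages, and of 8 epicardial genes 7 were higher.

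Markers of chamber muscle were read as a check of the labels. Over the 5 ages 9 of 10 atrial muscle genes were higher and 8 of 8 ventricular muscle genes lower in atria, where 42.4% of all probe sets tested were called. At E14.5 1 of the 8 ventricular genes was called lower and 8 of the 10 atrial genes higher. The score of the ventricular genes there was between -1.38 and 0.66 in atria and between 1.05 and 1.37 in ventricles. The score of the atrial genes came down to -0.12 in an atrial array. Single atrial arrays also read high for ventricular genes at E12.5 (-0.41), E16.5 (-0.20) and E18.5 (0.07), below the ventricles of the same age in each case. The part of these cell types and markers in the ribosomal protein differences was not tested, and in bulk samples fewer cells of a type and less RNA per cell cannot be told apart.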

How the data were processed

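Gene expression was read from 36 arrays in 12 groups of 3. The authors deposited 1 intensity per probe set and array on a linear scale, already brought to 1 level per array, with the method of summary and scaling not given in the sources used here. With 3 arrays a group, their number limits the precision. Probe sets were named from GEO's platform annotation, in which 34945 of 45037 carried 1 symbol, 932 several and 9160 none.

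Values were analysed as log2(intensity + 17), the pseudocount being 10% of the median of all values, 171.8. Probe sets above that median on at least 3 arrays were fitted together with limma 3.58.1 in R 4.3.3 (12 group means, 24 residual degrees of freedom, intensity trend). Two-sided p-values had a Benjamini-Hochberg adjustment over all 27256 tested probe sets, separately by comparison. Tested on simulated data for the ventricular comparison of E18.5 with E12.5, over 27256 probe sets, the fit recovered 82 of 100 changes of 1 and 37 of 100 of 0.5 on the log2 scale. Only these probe sets were changed there, a far smaller share than the 28.7% called in the data. The adjustment was therefore stricter in the simulation, and its rates do not give the sensitivity in the data. Fold changes on this scale understate changes of dim probe sets.

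Named members were the largest calls of each comparison, members with paralogues or known further roles, and those below the filter. In the pathway lists, called genes with large differences and a fixed few were named. Lists of nucleolar factors, polymerase I genes, translation factors, regulators, proliferation genes and markers of red cells, liver, lung, fibroblasts, macrophages, epicardium and chamber muscle were counted. The members, lists and tests were chosen with earlier results of these data known. Alternatives covered scaling, pseudocount, filters, samples in the fit, array weights, probe set choice and single arrays. Chosen after seeing the data were the fits without arrays with high lung or liver markers, without the 3 arrays with the highest maximum, without E14.5 and with arrays scaled to the members.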

Additional observations from a re-analysis of the deposited data

Results flagged for a closer look

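The direct test of whether atria and ventricles changed differently between E12.5 and E18.5 called Rpl27a and, among the pathway genes, Taf1a. Rpl27a rose in ventricles (0.81) and not in atria (-0.16), and its interaction was -0.97 ± 0.22 (limma, adjusted p = 0.012). Taf1a fell by 1.204 in ventricles and differed by -0.32 in atria, with an interaction of 0.88 ± 0.18 (limma, adjusted p = 0.0036). Rpl27a was read on a dim probe set with a mean of 488. The cause of either difference was not tested.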

How the results depend on the processing

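Of 33 results for named members, the alternatives other than single arrays kept the call and direction in 400 cases, ended the call in 87 and in 1 left a value with its sign turned at about 0, Rps25 in the atrial period with arrays scaled to the members (0.0043, adjusted p = 0.99). That scaling takes the members' own median change out of every value, so this turn and the medians near 0 under it follow from its construction. Leaving out 1 array kept 240 calls and ended 60. Quantile normalization gave 19 calls for the chambers over 5 ages, 18 for the ventricular period, 2 for the difference between the periods, and for the chambers 9 at E18.5, 6 at E16.5, 3 at E12.5 and 1 at E14.5, with medians of -0.10 for the atrial period, 0.021 for the difference between periods and 0.063 at E18.5. Arrays scaled to the members gave 10, 2, 3 and 0 calls for the chambers, the ventricular and atrial periods and their difference, 0 at E18.5, 1 at E16.5 and 1 at E13.5, with medians of -0.0009 (atrial period), -0.0024 (difference), 0.023 (E11.5 against E10.5) and 0.0005 (E18.5). Array weights gave 10 calls for the chambers, 29 for the atrial period (28 lower), 3 for the difference, 7 for E11.5, 3 for E12.5 against E11.5, 4 at E12.5 and 9 at E18.5. The share of all probe sets tested that was called lower in the atrial period was 24.3% with array weights and 11.7% in the main fit. Member counts given without such a share, here and above, do not show changes particular to the members. Median centring gave 3 (ventricular period), 8 (atrial period) and 1 (E16.5). No filter gave 7 for the atrial period and 2 at E18.5, and no intensity trend 8 and, for E11.5, 1. A pseudocount of 68 gave 1 for E11.5. Only the compared groups gave 22 for E11.5 and 1 at E16.5. The mean of probe sets gave 11 (ventricular period), 0 (difference), 1 (E14.5) and 0 (E18.5). Probe sets without a suffix gave 10 (ventricular period), 8 (atrial period) and 2 (E18.5), with medians of -0.37 (ventricular period), 0.11 (difference), -0.14 (E12.5 against E11.5) and 0.049 (E18.5), over fewer members. Without arrays with high lung or liver markers there were 4 (atrial period), 0 (difference), 1 (E16.5) and 0 (E18.5), and without the 3 arrays with the highest maximum 24 (atrial period), 1 (E11.5) and 6 (E18.5). Leaving out 1 array gave 4 to 11 calls for the chambers, 3 to 12 for the atrial period, 1 to 4 at E13.5, 0 to 1 at E14.5 with medians of -0.23 to 0.075, 1 to 2 at E16.5, and at E18.5 from 0 to 1. Other causes were not tested. Replicate numbers were shared between groups. The correlation of same-numbered deviations exceeded 0.1 in 1 of 15 pairs (-0.34 to 0.16). Deviations from means of 3 arrays cannot settle whether same-numbered atria and ventricles share a source, so pairing is not known. With the replicate number as a block, the calls were 4 for the chambers, 5 and 10 for the ventricular and atrial periods and 1 for their difference. That block was shared over all ages and does not model pairs within an age.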
